A study of Mus musculus with 1 sample.

Results

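Tetraspanins are small membrane proteins that gather partner receptors, proteases and each other into patches of the plasma membrane and of endosomes. The group described here is every row of the deposited table whose gene name is Tspan followed by a number, together with Cd9, Cd37, Cd53, Cd63, Cd81, Cd82 and Cd151. The rule found 27 genes among the 23386 genes of the table, and it used names alone, not levels. The library comes from 1 culture of mouse fibroblasts, expanded in vitro from normal pancreas. The animal had a mixed background of C57BL/6 and BALB/c, and its genotype label gives tf1acre- and Tgfrb2flox/flox, so it was Cre-negative and carried floxed alleles of a gene written Tgfrb2. The labels used here state neither age nor the number of animals. By its title, the series set such cells against cancer-associated fibroblasts of pancreas tumours, but no library with that label was analysed here. No difference between conditions was therefore tested. The deposited value column carries a CAF code that disagrees with the label, so the sample is called the library labelled normal fibroblast.

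Each tetraspanin crosses the membrane several times and exposes a large and a small outer loop. The large loop binds partner proteins, among them laminin-binding integrins for Cd151, immunoglobulin superfamily proteins of the EWI type for Cd81 and Cd9, and the sheddase ADAM10 for a subgroup known as TspanC8. Cd9, Cd63 and Cd81 are widely used markers of extracellular vesicles. Cd37, Cd53 and Tspan32 are known from blood cells. In fibroblasts, tetraspanins are known mainly for adhesion, migration and vesicle release.

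The genes of the table held 52494688 reads in all, and reads outside them are not counted here. Levels are given as reads, as CPM (reads per 1000000 reads in the table) and, for most comparisons between genes, as CPM per kb of exonic length. Markers of cell types are given as CPM or reads, without regard to length. A gene counted as detected at 10 reads. Intervals are exact 95% Poisson intervals, or exact Clopper-Pearson intervals for shares; they cover counting error only, because there is 1 library and no replicate. All 12 fibroblast markers examined were detected, against 67.6% of all protein-coding genes. Their levels lay between 0.552 CPM for Fap and 3021 CPM for Col1a2. All 5 mesothelial markers lay between 90.7 and 218 CPM, and 5 of 6 acinar markers had at least 48.3 CPM. The remaining acinar marker, Ptf1a, had 6 reads and was not detected. The 8 epithelial markers summed to 33.1 CPM, the highest being Krt18 at 11.8 CPM, and the 11 leukocyte markers summed to 19.4 CPM. Of the 5 endothelial markers, Kdr had 181 CPM, Pecam1 had 13 reads and Emcn had 5 reads. The part of such cells in the tetraspanin levels was not tested, and in a bulk library fewer cells of a type and less RNA per cell cannot be told apart.

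Most tetraspanin genes were transcribed in the library, but a few of them made up most of the signal. Of the 27 genes, 24 had at least 10 reads (88.9%), against 67.6% of all 20559 protein-coding genes. Tspan11 had 9 reads, Cd37 had 6 and Tspan10 had 2, and no member was at 0. Levels spread widely, with 6 members at or above 100 CPM, 6 between 10 and 100 CPM, 9 between 1 and 10 CPM and 6 below 1 CPM. At or above 100 CPM lay 10.5% of all protein-coding genes. The median member had 8.74 CPM, or 4.24 CPM per kb. The corresponding medians were 4.71 CPM and 1.22 CPM per kb over all protein-coding genes, and 21.4 CPM and 4.94 CPM per kb over those with at least 10 reads.

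Per kb, 13 members lay above the median of the detected protein-coding genes and 14 below it. The share of all protein-coding genes above that median was 33.8%. By CPM alone, 12 members lay above the corresponding median, which 33.8% of all protein-coding genes exceeded. Per kb, 6 members stood in the top 10% of detected protein-coding genes, a range that held 6.75% of all protein-coding genes: Cd81, Cd151, Tspan31, Tspan4, Cd63 and Cd9. The count is 5, without Tspan31, if an even share of the reads of genes with overlapping exons is taken off, a setting chosen after seeing the data. By CPM alone, only 2 members, Cd81 and Cd151, stood in the corresponding top 10%, which by definition holds about 10% of detected protein-coding genes. All members together had 91245 reads, 0.174% of the reads in the table. Cd81 and Cd151 held 55.2% of them (54.9% to 55.5%), and the 5 members with most reads held 75.4% (75.1% to 75.7%).

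**Figure D1:**
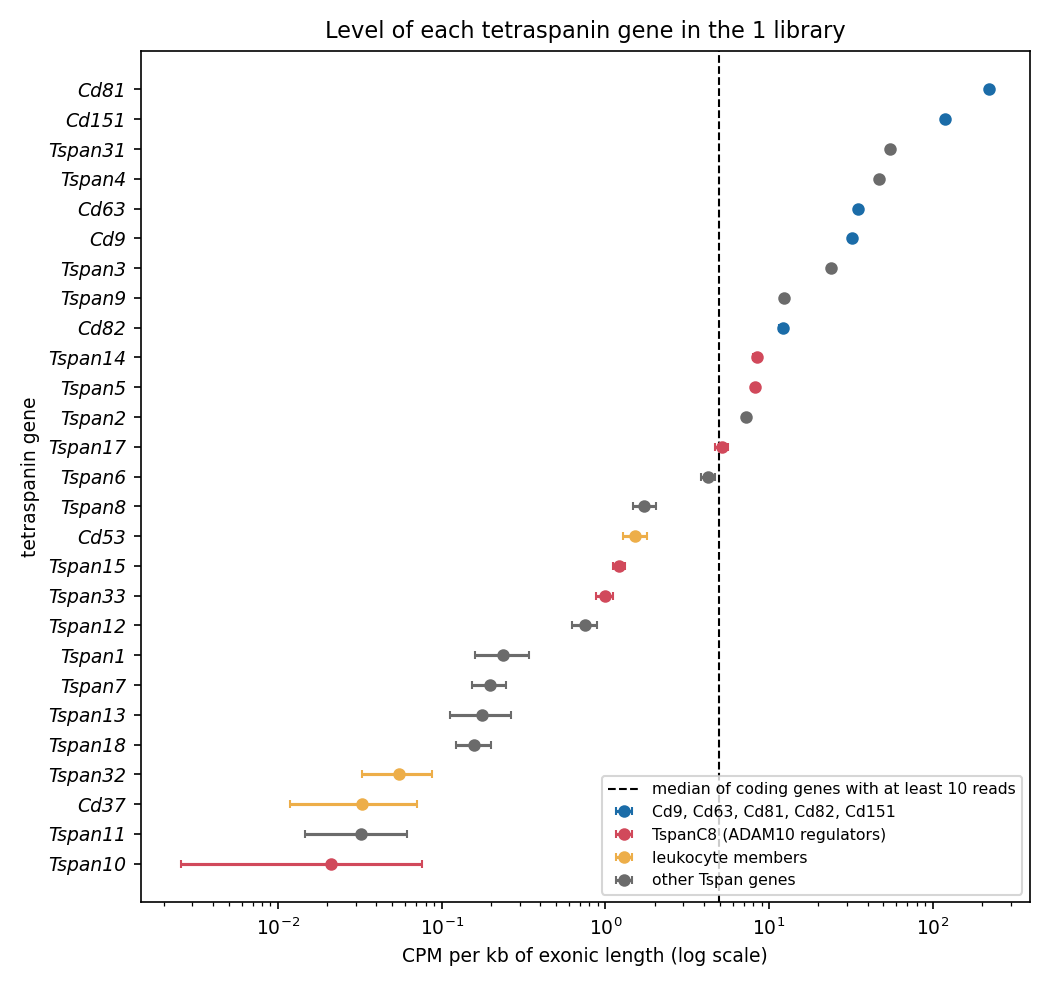
CPM per kb of exonic length (log scale) of each of the 27 tetraspanin genes in the library labelled normal fibroblast, in falling order; points are values, bars are exact 95% Poisson intervals, colours mark subgroups and the dashed line is the median of protein-coding genes with at least 10 reads (4.94 CPM per kb). Cd81 at 219 and Cd151 at 120 lead, and Tspan32, Cd37, Tspan11 and Tspan10 are all below 0.1.

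The plot of the members' levels shows a steep top and a long tail. Neighbours in that order had overlapping intervals in 12 of 26 pairs. They were Tspan9 and Cd82, Tspan14 and Tspan5, and then every neighbouring pair from Tspan8 to Tspan12, from Tspan1 to Tspan18 and from Tspan32 to Tspan10. The rest of the order exceeded counting error, but no spread between cultures is known.

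**Figure D2:**
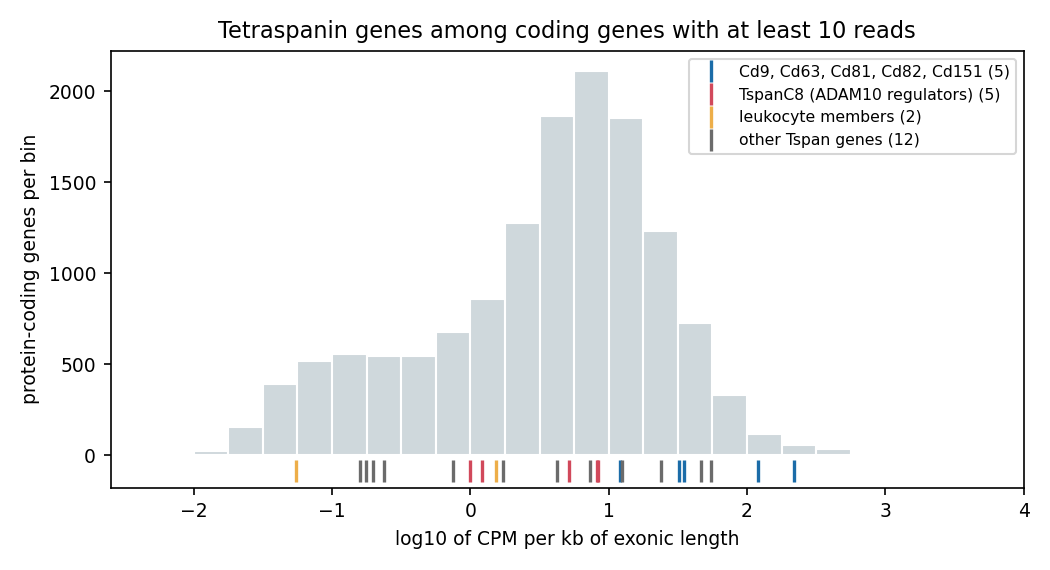
Histogram of log10 CPM per kb of the protein-coding genes with at least 10 reads (grey, genes per bin of 0.25), with the 24 detected tetraspanin genes as ticks beneath, coloured by subgroup. Ticks run from Tspan32 near the left end, at 0.0550 CPM per kb, to Cd81 at 219 CPM per kb, and all 5 of Cd9, Cd63, Cd81, Cd82 and Cd151 lie right of the peak of the histogram.

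Members with CD names that are known as broadly expressed, a subgroup that leaves out Cd37 and Cd53, held most of the reads, mainly through Cd81 and Cd151. Cd9, Cd63, Cd81, Cd82 and Cd151 were all detected, against 67.6% of all protein-coding genes. Together they held 68.5% of the tetraspanin reads, or 70.1% of the summed CPM per kb. Of the reads of this subgroup, Cd81 held 53.1% and Cd151 27.5%. Cd9 and Cd82 had fewer reads than Tspan31, Tspan3 and Tspan4. Cd81 (GRCm38 chromosome 7, 143052750 to 143067930), a partner of EWI proteins, had 33155 reads, or 632 CPM (625 to 638). It ranked 158 among all genes of the table, and its 219 CPM per kb lay above 99.4% of detected protein-coding genes. Cd151 (chromosome 7, 141467362 to 141471481), the tetraspanin tied to laminin-binding integrins, had 17200 reads, or 328 CPM (323 to 333), and 120 CPM per kb. Per kb, Cd81 was 1.84 times as high as Cd151.

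The other 3 were lower. Cd63 (chromosome 10, 128896231 to 128912822), which cycles through late endosomes and lysosomes, had 6758 reads, 129 CPM and 35.0 CPM per kb (34.1 to 35.8). Cd9 (chromosome 6, 125460266 to 125494760), the egg protein needed for sperm fusion, had 3466 reads, 66.0 CPM and 32.3 CPM per kb (31.2 to 33.4). Cd82, known in human as the metastasis suppressor KAI1, had 1907 reads, 36.3 CPM and 12.1 CPM per kb (11.6 to 12.6). Per kb of exonic length, Cd63 and Cd9 stood close to each other, but by CPM Cd63 was well above Cd9, at 129 against 66.0. Cd82 was lower than both beyond counting error.

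The level of Cd63 per kb depends on the length assigned to the gene. The union of its annotated exons is 3682 bases, 3.46 times its longest transcript matched to the accessions of the table (1063 bases), and division by that transcript gives 121 CPM per kb, the third highest of the group. Cd9 had 53.8 CPM per kb by its longest matched transcript, so Cd63 and Cd9 were not close by that measure. In all, 12 members had an exon union more than 1.5 times their longest matched transcript, and with transcript lengths no member moved by more than 2 places in the order. Of all 40-base words in Cd63 transcripts, 13.5% also occur in transcripts of other genes on the same strand, most often those of the pseudogene Cd63-ps. For Cd9 the share is 7.19%, or 16.1% when either strand is counted. No label or header used here says how reads shared by such copies were counted, so both levels are uncertain. For Cd81, Cd151 and Cd82 the share is 0% on the same strand, and it is 1.22% for Cd81 and 5.22% for Cd151 when either strand is counted.

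Among the genes named Tspan, Tspan31 and Tspan4 were highest per kb as counted, but the place of Tspan31 is uncertain. Tspan31 (chromosome 10, 127067287 to 127070972), known in human as a gene amplified with CDK4 in sarcomas, had 6321 reads, 120 CPM (117 to 123) and 54.9 CPM per kb. Its exons overlap those of Cdk4, the cell cycle kinase gene on the opposite strand, by 641 bases, 29.2% of the exonic length of Tspan31. Cdk4 had 442 CPM, and if its reads were spread evenly over its exons, the stretch shared with Tspan31 would hold 87.2 CPM of Cdk4. No label or header used here states whether counting used the strand, so the reads of both genes cannot be told apart in that stretch, and without that amount Tspan31 would have 33.2 CPM and 15.1 CPM per kb, above 78.4% of detected protein-coding genes and below both Tspan4 and Tspan3.

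Tspan4 (chromosome 7, 141475236 to 141493427), whose protein builds migrasomes, the vesicles that migrating cells leave on their retraction fibres, had 5340 reads, 102 CPM (99.0 to 104) and 46.7 CPM per kb. It overlaps Chid1 on the opposite strand by 292 exonic bases, but an even spread of the 35.9 CPM of Chid1 would place only 0.965 CPM there. Tspan3 had 5351 reads, 102 CPM and 23.8 CPM per kb. Tspan9, known from platelets, had 3238 reads, 61.7 CPM and 12.4 CPM per kb. Tspan2, known from oligodendrocytes, had 1818 reads, 34.6 CPM and 7.28 CPM per kb. Tspan3 and Tspan4 thus had nearly equal read numbers, while per kb Tspan4 was higher, with 2178 bases of annotated exons for Tspan4 and 4274 for Tspan3.

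The remaining genes outside the subgroups formed the tail. Tspan6 had 459 reads and 4.24 CPM per kb, just under the median of detected protein-coding genes. Tspan8, a tumour-associated antigen of the digestive tract in human, had 155 reads and 1.73 CPM per kb. Tspan12, a subunit of the Norrin receptor, had 130 reads and 0.748 CPM per kb. Tspan7, a gene of X-linked intellectual disability in human, had 73 reads, Tspan18, known from endothelial cells, had 68, Tspan1 had 29 and Tspan13 had 23. These last 4 lay between 0.158 and 0.237 CPM per kb, with overlapping intervals.

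TspanC8 members escort the sheddase ADAM10 out of the endoplasmic reticulum and steer its choice of substrate. Of the 6 genes, 5 were detected, against 67.6% of all protein-coding genes. Together the 6 had 5582 reads, 6.12% of the tetraspanin reads and 4.02% of the summed CPM per kb. By reads, Tspan5 led with 3172, 56.8% of the subgroup (55.5% to 58.1%), ahead of Tspan14 with 1169 (20.9%, 19.9% to 22.0%). Per kb that lead was gone, with 8.40 CPM per kb for Tspan14 (7.93 to 8.90) and 8.18 for Tspan5 (7.90 to 8.47). The annotated exons span 2650 bases in Tspan14 and 7389 in Tspan5. The shares of the summed CPM per kb were 35.1% for Tspan14 and 34.1% for Tspan5.

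Tspan17 followed with 448 reads and 5.15 CPM per kb, 21.5% of the subgroup per kb. Tspan15 had 520 reads and 1.21 CPM per kb, and Tspan33, known from erythroid precursors, had 271 reads and 0.994 CPM per kb. Tspan10, known as oculospanin of the pigmented cells of the eye, had 2 reads, or 0.0381 CPM (0.00461 to 0.138). The 3 higher members thus held most of the subgroup per kb, and only Tspan10 fell below detection.

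The 6 TspanC8 genes summed to 24.0 CPM per kb, against 55.2 CPM per kb for Adam10, which had 14235 reads and 271 CPM. Adam17, the related sheddase that TspanC8 proteins do not escort, had 9.68 CPM per kb. All 10 genes of ADAM10 substrates examined were detected, against 67.6% of all protein-coding genes. Prnp, the prion protein gene, led at 443 CPM per kb, followed by Cd44 at 69.7, App at 62.9 and Cdh2, the N-cadherin gene, at 39.2. Of the Notch receptors, Notch2 had 22.0 CPM per kb, Notch3 1.25 and Notch1 0.997. E-cadherin, Cdh1, had 276 reads, and the chemokine gene Cx3cl1 had 133.

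**Figure D3:**
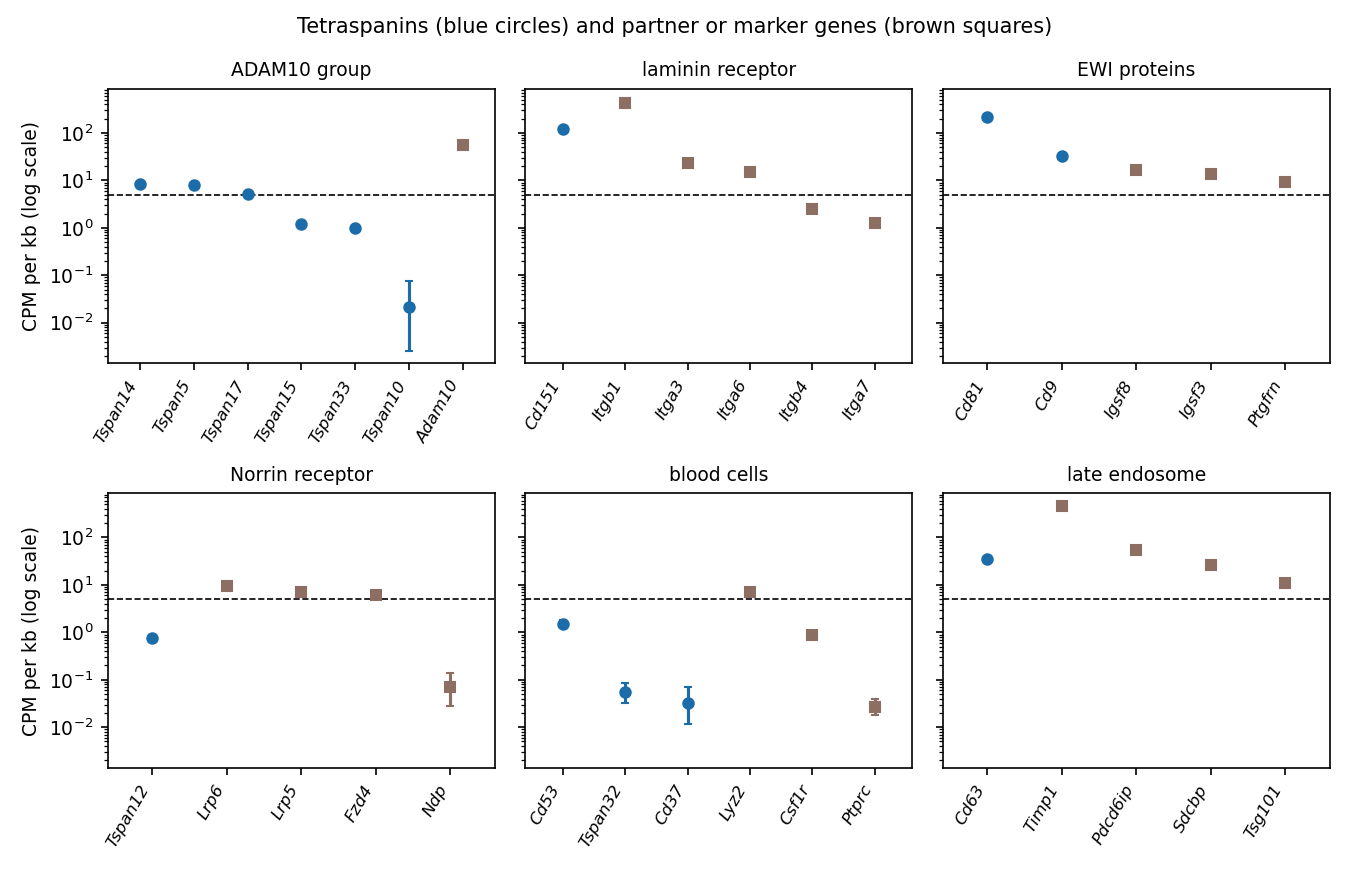
CPM per kb (log scale) of tetraspanin genes (blue circles, left in each panel) and of genes of their known partners or, in the blood cell panel, of leukocyte markers (brown squares, right), with exact 95% Poisson intervals; the dashed line is the median of protein-coding genes with at least 10 reads. Cd81 stands at 219 CPM per kb, above the 3 EWI genes, and Tspan12 is below Fzd4, Lrp5 and Lrp6.

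Partner genes of the leading members were mostly present. Of 20 partner genes examined, 19 were detected, against 67.6% of all protein-coding genes. The median of the 20 was 14.6 CPM per kb. By CPM, 14 of the 20 exceeded 21.4 CPM, the middle level of coding genes with at least 10 reads. Some detected partners were low: Itga4 had 37 reads and 0.0504 CPM per kb, Epcam 61 and 0.529, and Cldn1 218 and 0.858. Cd151 had 120 CPM per kb, against 431 CPM per kb for the integrin beta chain Itgb1 and 23.0 and 15.3 CPM per kb for the laminin-binding alpha chains Itga3 and Itga6. Itgb4, which pairs with Itga6 in epithelia, had 2.48 CPM per kb, and Itga7, the muscle laminin receptor chain, had 1.29. Cd81 and Cd9, at 219 and 32.3 CPM per kb, were both above the EWI genes Igsf8, Igsf3 and Ptgfrn, which had 16.6, 13.9 and 9.38 CPM per kb. The undetected partner was Cr2, a complement receptor gene, with 7 reads.

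For Cd63, the protease inhibitor gene Timp1, whose product binds Cd63 at the cell surface, had 404 CPM and 455 CPM per kb. The genes of vesicle formation were all detected, 16 of 16, against 67.6% of all protein-coding genes. Their median was 23.6 CPM per kb. Smpd3, a neutral sphingomyelinase gene, had 100 CPM per kb, Pdcd6ip, which encodes the ESCRT adaptor ALIX, had 55.0, Chmp4b 45.7 and Sdcbp, the syntenin gene, 26.6. Rab27a and Rab27b, GTPases of vesicle release, had 2.30 and 1.25 CPM per kb, the lowest of the 16. Tspan12, at 0.748 CPM per kb, was below the other Norrin receptor genes Lrp6, Lrp5 and Fzd4, which had 9.59, 7.02 and 6.23 CPM per kb, and the ligand gene Ndp had 7 reads.

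Members known from blood cells were low, and of these Tspan32 and Cd37 were near the limit of detection. Cd53 had 139 reads, or 2.65 CPM (2.23 to 3.13) and 1.52 CPM per kb. Tspan32 had 18 reads, or 0.343 CPM (0.203 to 0.542), and Cd37 had 6 reads, or 0.114 CPM (0.0419 to 0.249). The 3 genes together held 0.179% of the tetraspanin reads. Leukocyte markers were low in CPM as well. Of the 11, 8 were detected (72.7%), near the 67.6% of all protein-coding genes. Lyz2 had 483 reads, Csf1r 268 and Ptprc, the leukocyte common antigen gene, 26, while Cd52 and Ms4a1 had 4 each and Cd3e had 3. Exons of Cd37 overlap those of Tead2, on the opposite strand, by 13 bases, and an even spread of the 47.0 CPM of Tead2 would place 0.128 CPM there. That is of the size of the whole Cd37 signal, so Cd37 is not separable from its neighbour at this depth.

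The level of tetraspanins was set beside that of other families of membrane proteins with several spans. With 24 of 27 detected, against 67.6% of all protein-coding genes, the tetraspanin median was 4.24 CPM per kb. Of 25 claudin genes, which build tight junctions, 10 were detected and the median was 0.0611 CPM per kb. Of 20 connexin genes, which build gap junctions, 10 were detected and the median was 0.0611 CPM per kb. These are descriptions of 1 library and were not tested.

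Several tetraspanin genes lie next to each other in the genome, and some of these neighbours differed in level. Levels spread widely over the whole group, and neighbours were not compared with other pairs of members. On chromosome 7, Tspan32 (143004907 to 143019486) ends 33.3 kb before Cd81, with no protein-coding gene between them in GENCODE M21. Cd81 had 219 CPM per kb and Tspan32 0.0550. On chromosome 6, Tspan11 (127887509 to 127953031) and Tspan9 (127961396 to 128143578) are 8.36 kb apart, with 0.0322 CPM per kb for Tspan11 and 12.4 for Tspan9. On chromosome 2, Tspan18 (93201760 to 93334551) and Cd82 (93419102 to 93462950) are 84.6 kb apart, with 0.158 CPM per kb for Tspan18 and 12.1 for Cd82. The pair Cd151 and Tspan4 on chromosome 7 are separated by 3.75 kb that holds Polr2l, and both were high, at 120 and 46.7 CPM per kb.

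Promoters of some of these neighbours are shown, in pairs picked because the genes differ so far in level. Tspan18 had no window, and neither its pair with Cd82 nor the pair Cd151 and Tspan4 is shown. The 250 bases before an annotated transcript start were taken from RefSeq (GRCm38.p6), on the strand of the gene and 5′ to 3′, with CG dinucleotides in capitals. Cd81 (chr7:143052500-143052749, plus strand) and Tspan32 (chr7:143004796-143005045, plus strand) are the pair whose gene spans lie 33.3 kb apart. Tspan9 (chr6:128143579-128143828, minus strand, the first of its 4 annotated starts) and Tspan11 (chr6:127887372-127887621, plus strand) are the pair whose gene spans lie 8.36 kb apart. In both pairs the windows lie farther apart than the gene spans. For Tspan9 and Tspan11 they lie at or near the outer ends of the genes, far beyond 8.36 kb. Tspan13 (chr12:36042479-36042728, minus strand) is shown as a gene of few reads whose promoter is rich in CG. All 5 starts match the start of a GENCODE transcript. The starts used for Tspan32 and Tspan11 lie 139 and 113 bases inside the gene spans given above, which reach to a further annotated start.
Cd81: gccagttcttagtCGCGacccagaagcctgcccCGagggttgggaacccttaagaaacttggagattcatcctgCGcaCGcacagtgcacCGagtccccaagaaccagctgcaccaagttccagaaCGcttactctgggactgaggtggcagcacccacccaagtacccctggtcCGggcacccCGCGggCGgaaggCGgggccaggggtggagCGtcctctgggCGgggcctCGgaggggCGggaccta
Tspan32: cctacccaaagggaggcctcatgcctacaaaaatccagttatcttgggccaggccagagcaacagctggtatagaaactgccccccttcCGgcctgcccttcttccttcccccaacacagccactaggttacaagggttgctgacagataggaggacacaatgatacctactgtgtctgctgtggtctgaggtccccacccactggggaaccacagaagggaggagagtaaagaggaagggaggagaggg
Tspan9: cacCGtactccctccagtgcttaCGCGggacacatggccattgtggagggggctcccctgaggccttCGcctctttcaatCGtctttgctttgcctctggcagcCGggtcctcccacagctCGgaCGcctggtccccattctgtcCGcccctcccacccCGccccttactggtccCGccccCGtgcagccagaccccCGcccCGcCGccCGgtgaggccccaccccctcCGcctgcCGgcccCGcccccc
Tspan11: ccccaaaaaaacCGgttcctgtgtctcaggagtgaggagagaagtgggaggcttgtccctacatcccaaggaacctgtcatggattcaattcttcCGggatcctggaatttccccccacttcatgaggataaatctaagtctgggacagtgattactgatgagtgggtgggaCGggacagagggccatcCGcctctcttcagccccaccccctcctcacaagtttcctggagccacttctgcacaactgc
Tspan13: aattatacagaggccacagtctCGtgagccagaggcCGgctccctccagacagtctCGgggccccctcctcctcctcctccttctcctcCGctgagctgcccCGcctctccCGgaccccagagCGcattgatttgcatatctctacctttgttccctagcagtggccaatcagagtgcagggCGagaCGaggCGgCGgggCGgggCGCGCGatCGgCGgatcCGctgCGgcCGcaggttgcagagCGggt

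The Cd81 window holds 16 CG and the Tspan32 window 1. The Tspan9 window holds 19 and the Tspan11 window 4, whereas the Tspan13 window holds 21 although the gene had 23 reads. CG reads the same on both strands, so each site was counted once. Windows were found for 26 of the 27 genes, and where a gene had several, the one with most CG was used. Of the 36 windows, 28 match the start of a GENCODE transcript and 8 do not, and 23 end inside the span of their gene, among them those of Cd63, Tspan31, Tspan6 and Tspan12. At least 10 CG were held by 11 of the 13 members above the per-length median of detected protein-coding genes and by 4 of the 13 below it. Only members above that median had several windows (Cd151, Tspan4, Tspan9, Cd82, Tspan2 and Tspan14). Using the window with most CG could therefore raise the count on that side alone. With only matching windows, the counts were 9 of 11 and 3 of 12. With only windows that end at the outer edge of the gene, they were 8 of 8 and 3 of 5. Above the median, over all windows, Cd63 with 6 CG and Tspan31 with 7 held fewer than 10. Below it, at least 10 were held by Tspan15 with 23, Tspan13 with 21, Tspan7 with 19 and Tspan33 with 13. Among all protein-coding genes with a window and a length, 5580 lay above the same median and 10439 below it. At least 10 CG were held by 85.2% of the former and 41.0% of the latter. The split thus went the same way over all protein-coding genes, and the members were not tested against these shares. Of all 32851 windows in the table, 37.8% held at least 10.

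**Figure D4:**
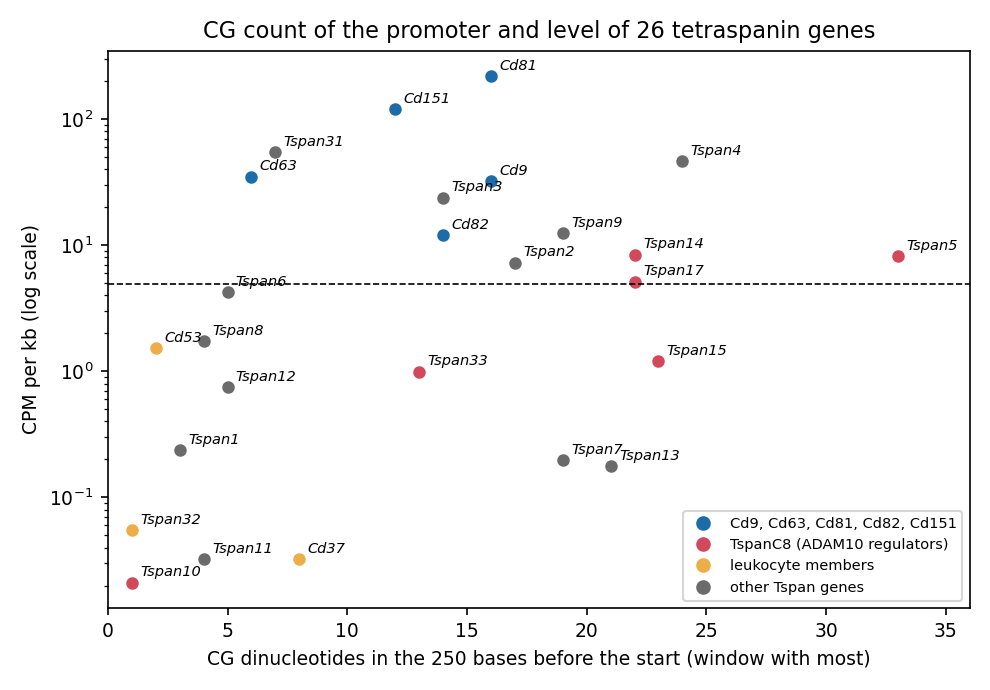
CPM per kb (log scale) against the number of CG dinucleotides in the 250 bases before an annotated transcript start (the window with most), for the 26 tetraspanin genes with a window; colours mark subgroups and the dashed line is the median of detected protein-coding genes. Genes with at least 10 CG occur on both sides of the line, with Cd81 at 16 CG and 219 CPM per kb above it and Tspan13 at 21 CG and 0.177 CPM per kb below it.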

How the data were processed

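Per the labels' protocols, total RNA of 1 culture went into a SOLiD library. The deposited table gives a gene name, RefSeq accessions and a normalised signal per row for 24214 rows, per the file headers. The submitters' processing notes name DESeq and mm10. Nothing on the aligner, counting tool, strand setting or filters was given in the sources used here. All 20976 values above 0 were whole multiples of 1.18 within 0.006, so the deposited signal was taken as read counts divided by 1 size factor of 0.850, and whole reads were recovered. The design had assumed counts or such reads, and no count test was run, because there is 1 library. Rows of a gene were summed. Exonic length is the union of a gene's GENCODE M21 exons (GRCm38, as mm10), found for all 27 members and 99.2% of protein-coding genes. Gene coordinates and promoter windows are RefSeq's. Read recovery was tested on simulated data. All 27 members are described. The other genes named are mostly listed partners, leading genes of a list or genes below 10 reads, and not every such gene is named. A few further list genes were added, as a contrast, once their values had been seen. The members and lists were chosen with earlier results of these data known. Computation used scipy 1.17.1, pandas 2.3.3 and numpy 2.4.6 under Python 3.11.15, with plots by matplotlib 3.10.9. A few items of the labels and lists are not reported here.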

Additional observations from a re-analysis of the deposited data

How the results depend on the processing

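No paired analysis was possible because there is 1 sample, and for the same reason no replicate could be left out. The number of detected members was 24 at the minimum of 10 reads. It was 27 at a minimum of 1, 21 at a minimum of 50, and 24 when rows of a gene were not summed. Of all protein-coding genes, 67.6% had at least 10 reads. At least 1 read was held by 20976 of the 24214 rows of the table, and the share of all genes with at least 50 is not given here. The number of members higher than the median detected coding gene was 12 by CPM, 13 by exonic length, 12 by the longest matched transcript and 15 against coding genes with at least 1 read. Of all protein-coding genes, 33.8% exceeded that median by CPM and 33.8% by exonic length. The shares for the other settings are not given here. The median member had 8.74 CPM. It had 11.7 CPM without the 100 most abundant genes in the total and 9.52 CPM over protein-coding reads, which are changes of scale, and 16.1 CPM over the 24 detected members alone, which leaves out the lowest genes. The 5 leading genes, taken anew in each setting, held 75.4% by reads, 79.7% by exonic length and 79.2% by transcript length. The share was 71.6% by reads with Upk1a, Upk1b, Prph2 and Rom1 added. Tspan4 took the place of Tspan3 in both settings by length, and Upk1b was among the 5 in the last setting. The share of Tspan14 in the TspanC8 subgroup was 20.9% by reads, 35.1% by exonic length and 31.2% by transcript length, and that of Tspan5 was 56.8%, 34.1% and 31.5% in the same order. The settings by transcript length were chosen after seeing the data. Of the 8 members below 100 reads, all neighbouring pairs in the order per kb had overlapping intervals except Tspan18 and Tspan32. The number of members in the top 10% per kb was 6, and 5 after an even share of the reads of overlapping genes was taken off, also chosen after seeing the data. By CPM it was 2.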

Other observations

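A few genes of the tetraspanin superfamily carry other names and fell outside the rule. Upk1b (uroplakin 1b), known from the urothelial plaque and from mesothelium, had 7412 reads, 141 CPM (138 to 144) and 67.6 CPM per kb. Per kb that is above Tspan31 and below Cd151. Its relative Upk1a had 41 reads, and of the uroplakin partner genes Upk3b had 145 CPM and 41.0 CPM per kb, while Upk2 and Upk3a had 1 read each. The photoreceptor disc genes Rom1 and Prph2 had 226 reads and 1 read. The mesothelial marker list is high in this library, and its part in the level of Upk1b was not tested.

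Genes of palmitoyltransferases, enzymes that attach fatty acids to tetraspanins and many other membrane proteins, were all detected, 8 of 8. The detected share of all protein-coding genes was 67.6%. The median of the 8 was 8.69 CPM per kb. Zdhhc5 led at 38.5 CPM per kb, followed by Zdhhc20 at 19.9. Zdhhc2, known to modify Cd9 and Cd151, had 8.76 CPM per kb.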
